A study of Mus musculus with 6 samples.

Results

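The E2F and RB family genes were examined in RNA-seq libraries of mouse liver tumours. The 10 genes, E2f1, E2f2, E2f3, E2f4, E2f5, E2f7, E2f8, Rb1, Rbl1 and Rbl2, were taken by symbol from the 39179 genes listed, and all 10 were among the 14365 tested. Tumours had been raised in C57BL/6 mice by hydrodynamic injection, a rapid injection of a large volume of DNA solution that reaches hepatocytes. The DNA carried transposons for Myc, which all 6 samples share, together with NrasG12V, an activated form of a RAS GTPase, in 3 samples or with Akt1, a growth-promoting kinase downstream of PI3K, in 3 samples. The wild-type hosts kept their own copies of Myc, Nras and Akt1, and the labels give neither the age or sex of the mice nor the promoter that drives the transgenes. No label says that replicates are separate animals, and p-values therefore measure only the spread between these samples, which may be technical.

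E2F proteins are transcription factors that switch on, or hold off, the genes a cell needs to copy its DNA. The activators E2F1, E2F2 and E2F3 bind DNA with a DP partner and drive entry into S phase. E2F4 and E2F5 act mainly as repressors. E2F7 and E2F8, the atypical members, repress without a DP partner, and in mouse liver they are known for their part in hepatocyte polyploidy. RB1 and its relatives p107 (gene Rbl1) and p130 (gene Rbl2) bind E2Fs and block transcription until cyclin-dependent kinases phosphorylate them. In resting cells p130 with E2F4 and the MuvB proteins forms the DREAM complex, which keeps cell cycle genes off. Several of these genes, E2f1, E2f2, E2f7, E2f8 and Rbl1 among them, are themselves E2F targets.

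Levels are in CPM, the reads of a gene scaled to an equal total in every library, as deposited. The libraries held 17881282 to 27865094 reads. By the limma test at an adjusted p under 0.05, 39.5% of all tested genes differed: 10% were higher and 29.5% lower in Myc/NrasG12V (1437 and 4240 genes). With TMM factors, which correct for the reads taken up by a few very abundant genes, these counts were 2331 and 2565. Over all tested genes the log2 difference had a median of -0.26 in CPM and 0.0049 with TMM factors. Differences in CPM include that shift; those with scaling factors and the ratios within a library do not. The groups did not overlap for 52.7% of tested genes, with Myc/NrasG12V below for 38%. Gene-level values of the oncogenes, which do not separate host from delivered copies, followed the labels. Nras averaged 171 ± 25.0 CPM in Myc/NrasG12V against 56.0 ± 4.51 CPM in Myc/Akt1 (SD, n = 3 each, here and below). Akt1 averaged 65.1 ± 19.1 CPM in Myc/NrasG12V against 279.9 ± 33.8 CPM in Myc/Akt1. Myc, delivered to both groups, averaged 153 ± 29.4 CPM in Myc/NrasG12V and 154 ± 55.0 CPM in Myc/Akt1. Myc/NrasG12V replicate 3 stood apart on the second principal component, at -46.2 against 30.2 and 24.3 for the other Myc/NrasG12V libraries.

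Start-site sequences are shown for the members whose transcripts differed, since these genes are known E2F targets. RefSeq windows, 250 bases before to 50 after an annotated start, matched 7 of the 10 members, in 9 windows of the build GRCm38.p6. They were searched on both strands for the E2F words TTTCCCGC, TTTCGCGC, TTTGCCGC and TTTGGCGC and for TTTGAA, the cell cycle homology region (CHR) that MuvB complexes bind. The stretches of E2f2 (chr4:136172024-136172323, plus strand), E2f7 (chr10:110745189-110745438, plus), E2f8 (chr7:48881597-48881846, minus) and Rbl1 (chr2:157204535-157204784, minus) follow, 5′ to 3′. Capitals mark the words found.
E2f2: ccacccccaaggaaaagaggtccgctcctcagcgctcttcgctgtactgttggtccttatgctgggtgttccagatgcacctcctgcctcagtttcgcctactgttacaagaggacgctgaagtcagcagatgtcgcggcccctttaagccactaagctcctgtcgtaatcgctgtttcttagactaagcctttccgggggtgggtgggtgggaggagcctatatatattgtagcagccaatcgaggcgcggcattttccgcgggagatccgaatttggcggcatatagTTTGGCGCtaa
E2f7: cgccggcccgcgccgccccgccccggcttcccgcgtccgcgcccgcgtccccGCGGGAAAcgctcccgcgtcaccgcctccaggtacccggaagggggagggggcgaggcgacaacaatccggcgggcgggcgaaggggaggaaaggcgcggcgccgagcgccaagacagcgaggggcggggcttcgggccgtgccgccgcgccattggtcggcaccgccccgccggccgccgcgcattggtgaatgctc
E2f8: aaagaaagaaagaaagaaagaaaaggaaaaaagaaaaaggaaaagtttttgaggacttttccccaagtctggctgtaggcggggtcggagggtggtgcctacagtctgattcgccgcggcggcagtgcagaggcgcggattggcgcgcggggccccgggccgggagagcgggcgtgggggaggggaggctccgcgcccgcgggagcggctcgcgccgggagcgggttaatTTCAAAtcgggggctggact
Rbl1: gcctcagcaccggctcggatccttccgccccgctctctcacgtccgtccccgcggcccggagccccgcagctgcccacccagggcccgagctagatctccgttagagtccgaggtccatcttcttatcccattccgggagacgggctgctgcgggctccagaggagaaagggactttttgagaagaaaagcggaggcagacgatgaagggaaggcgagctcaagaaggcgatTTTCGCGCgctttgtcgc
E2f2, E2f7 and Rbl1 hold 1 E2F word each, TTTGGCGC in E2f2, TTTCGCGC in Rbl1 and, read on the opposite strand as GCGGGAAA, TTTCCCGC in E2f7. E2f8 holds no exact E2F word and 1 CHR, read as TTCAAA on the strand shown, 20 bases before its start. In Rbl1 the word begins 18 bases before the start and in E2f7 it begins 198 bases before. RefSeq starts E2f2 120 bases before the first start in the GENCODE M21 annotation, so the whole stretch lies ahead of that start. The RefSeq start of E2f1 lies 466 bases after the first GENCODE start, so its window lies within the transcribed gene and is not shown. E2f3, which has 2 starts that lie 1672 bases apart, holds 1 E2F word and 1 CHR at its first. E2F words were found in 2.6% of the 27025 genes with a window and the CHR in 20.2%. Among the 7 members with a window, 4 held an E2F word (E2f2, E2f3, E2f7 and Rbl1) and 4 the CHR (E2f2 and E2f3 in one of their windows, E2f8 and Rbl2). A word is a match of letters, not a measured site.

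Of the 10 members 5 were lower in Myc/NrasG12V and 0 higher, against 29.5% and 10% of all tested genes. The 5 were the activators E2f1 and E2f2, both atypical genes E2f7 and E2f8, and Rbl1. For 4 of the 10 (E2f1, E2f7, E2f8 and Rbl1) every Myc/NrasG12V library lay below every Myc/Akt1 library, beside the 38% given above. The repressors E2f4 and E2f5, the activator E2f3, and Rb1 and Rbl2 did not pass the test. The members had a median log2 difference of -0.80, against -0.26 over all tested genes. With TMM or median-of-ratios factors 4 members were lower and with upper-quartile factors 3, at backgrounds of 17.9%, 17.5% and 16.3%. The counts came to 3 without Myc/NrasG12V replicate 1 or without Myc/Akt1 replicate 2. In bulk tumours, fewer cells that transcribe a gene and less RNA per cell cannot be told apart.

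**Figure D1:**
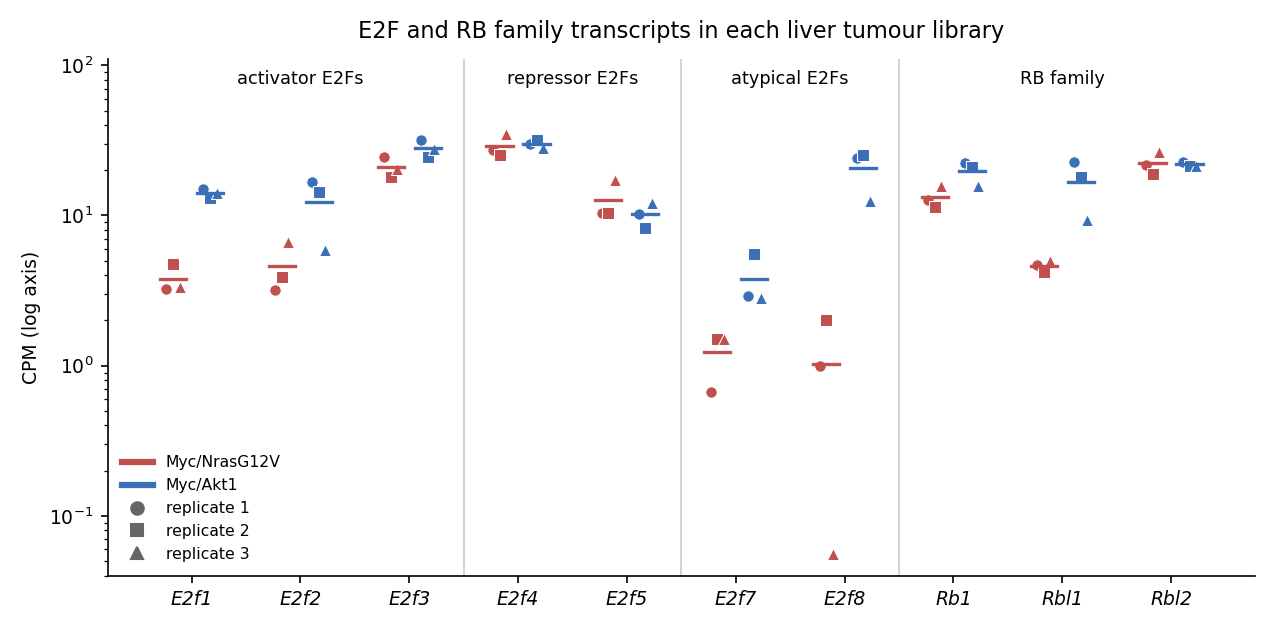
CPM of each member (log axis) in the 3 Myc/NrasG12V libraries (red) and the 3 Myc/Akt1 libraries (blue), with marker shape for the replicate and a bar for the group mean. The groups stand apart for E2f1, E2f7, E2f8 and Rbl1, while E2f4 and Rbl2 lie at almost the same mean; the lone low triangle is E2f8 in Myc/NrasG12V replicate 3, at 0.0559 CPM.

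Among the activators, E2f1 (ENSMUSG00000027490, chromosome 2, 154559407 to 154569892, GRCm38) was at 3.25, 4.73 and 3.36 CPM in Myc/NrasG12V replicates 1, 2 and 3, against 15, 13.1 and 14.1 CPM in Myc/Akt1. Every Myc/NrasG12V library lay below every Myc/Akt1 library, and the values within each group were close. Its mean was 3.73-fold higher in Myc/Akt1, with a log2 difference of -1.67 ± 0.22 (SE, n = 3 each; 95% interval -2.18 to -1.16) and a limma adjusted p of 7.58e-04. That call held under all 16 alternatives tried, with adjusted p from 4.70e-07 to 0.00596.

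E2f2 (ENSMUSG00000018983, chromosome 4, 136172394 to 136196057) was at 3.20, 3.90 and 6.71 CPM in Myc/NrasG12V, against 16.8, 14.2 and 5.86 CPM in Myc/Akt1. The groups overlapped: the highest Myc/NrasG12V library, replicate 3, exceeded the lowest Myc/Akt1 library, also replicate 3. The log2 difference was -1.18 ± 0.39 (SE, n = 3 each), with a limma adjusted p of 0.0421. This call did not hold with TMM, median-of-ratios or upper-quartile factors (adjusted p = 0.0983, 0.10 and 0.114) or in the edgeR quasi-likelihood test on recovered reads (0.0728). It also ended without Myc/NrasG12V replicate 1 or 2 (0.125 and 0.107) and without Myc/Akt1 replicate 1 or 2 (0.150 and 0.135), and over all alternatives its adjusted p ran from 0.00836 to 0.150. E2f2 is known for high expression in erythroid precursors, and markers of these cells were more abundant in Myc/NrasG12V: the 10 markers summed to 277, 987 and 1701 CPM in replicates 1, 2 and 3, against 49.1 to 96.8 CPM in Myc/Akt1. Of 9 tested erythroid markers 7 were higher and 0 lower in Myc/NrasG12V, and none of the list was at 0 throughout. The part of erythroid cells in the E2f2 values was not tested.

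E2f3 (ENSMUSG00000016477, chromosome 13, 29906575 to 29986063), which makes a long and a short isoform from its separate starts, did not pass the test. It was at 24.7, 18 and 20.2 CPM in Myc/NrasG12V, against 31.8, 24.6 and 27.8 CPM in Myc/Akt1, and the groups overlapped by a small margin. Its log2 difference was -0.41 (95% interval -0.86 to 0.043; limma adjusted p 0.134) and moved to -0.10 with TMM factors (0.709). Gene-level values do not separate the isoforms.

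The repressors showed no difference past the test. E2f4 (ENSMUSG00000014859, chromosome 8, 105297663 to 105305370) was at 27.3, 25.2 and 34.8 CPM in Myc/NrasG12V, against 29.9, 31.8 and 28.1 CPM in Myc/Akt1. Its log2 difference was -0.05 in CPM (95% interval -0.47 to 0.37, limma adjusted p 0.852) and 0.26 with TMM factors (adjusted p 0.248), so its sign depends on the scaling. E2f5 (ENSMUSG00000027552, chromosome 3, 14578641 to 14606309) was at 10.3, 10.3 and 17.1 CPM in Myc/NrasG12V, against 10.3, 8.29 and 12.2 CPM in Myc/Akt1. Only Myc/NrasG12V replicate 3 lay above all Myc/Akt1 libraries for E2f5, and the log2 difference was 0.25 (95% interval -0.35 to 0.85, limma adjusted p 0.482), or 0.54 with TMM factors (0.115).

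The atypical genes were the least abundant members in Myc/NrasG12V. E2f8 (ENSMUSG00000046179, chromosome 7, 48866429 to 48881596) was at 1.00, 2.02 and 0.0559 CPM in Myc/NrasG12V, or 21, 44 and 1 reads, against 24.0, 25.4 and 12.5 CPM in Myc/Akt1. Its level in every Myc/NrasG12V library was below that in every Myc/Akt1 library, and within Myc/NrasG12V the libraries spread more, relative to their mean, than for any other member. The mean was 20.1-fold higher in Myc/Akt1, 39.0-fold without Myc/NrasG12V replicate 2 and 13.7-fold without Myc/NrasG12V replicate 3. The log2 difference of -3.48 ± 0.42 (SE, n = 3 each; 95% interval -4.44 to -2.53) was the largest of the members, with a limma adjusted p of 4.89e-04, and passed under all 16 alternatives tried (2.94e-04 to 0.00645). Gm2788, an antisense transcript that shares up to 336 exon bases with E2f8, averaged 0.239 ± 0.128 CPM in Myc/NrasG12V and 5.16 ± 2.96 CPM in Myc/Akt1 (SD, n = 3 each). The libraries were stranded but the strand setting of the counting was not given in the sources used here, so reads of such pairs may be shared.

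E2f7 (ENSMUSG00000020185, chromosome 10, 110745439 to 110787384) was at 0.669, 1.52 and 1.51 CPM in Myc/NrasG12V, against 2.93, 5.53 and 2.82 CPM in Myc/Akt1, without overlap. It rested on few reads, 74 over the Myc/NrasG12V group and 285 over Myc/Akt1. The mean was 3.05-fold higher in Myc/Akt1, with a log2 difference of -1.07 ± 0.29 (SE, n = 3 each) and a limma adjusted p of 0.0174. The call ended with upper-quartile factors (adjusted p = 0.0539), with no filter on low values (0.0507), in the edgeR test (0.0532), and without Myc/Akt1 replicate 2 (0.0599) or Myc/NrasG12V replicate 1 (0.0623). Over all alternatives its adjusted p ran from 0.0142 to 0.0623.

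In the RB family, Rbl1 (ENSMUSG00000027641, chromosome 2, 157145893 to 157204534), which encodes p107, was at 4.68, 4.22 and 4.98 CPM in Myc/NrasG12V, against 22.7, 18.1 and 9.36 CPM in Myc/Akt1. The Myc/NrasG12V values were tightly grouped and all lay below Myc/Akt1, where replicate 3 was the lowest. The mean was 3.61-fold higher in Myc/Akt1, with a log2 difference of -1.57 ± 0.31 (SE, n = 3 each; 95% interval -2.29 to -0.86) and a limma adjusted p of 0.00504, past the test under all 16 alternatives (1.53e-04 to 0.0251).

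Rb1 (ENSMUSG00000022105, chromosome 14, 73183673 to 73325822), the retinoblastoma gene itself, was at 12.6, 11.4 and 15.7 CPM in Myc/NrasG12V, against 22.5, 21 and 15.6 CPM in Myc/Akt1. The groups met at replicate 3 of each. With a log2 difference of -0.54 (95% interval -1.05 to -0.029) its limma adjusted p was 0.0868, and with TMM factors the difference was -0.24 (0.385). It passed without Myc/NrasG12V replicate 3 (0.0403) or without Myc/Akt1 replicate 3 (0.0460), and its adjusted p reached 0.499 over the alternatives. The protein-coding gene Lpar6, on the opposite strand inside Rb1, shares up to 209 exon bases with it, and Rcbtb2, its opposite-strand neighbour, up to 383. Lpar6 averaged 16.1 ± 3.40 CPM in Myc/NrasG12V and 26.8 ± 2.37 CPM in Myc/Akt1, and Rcbtb2 averaged 17.4 ± 5.09 CPM in Myc/NrasG12V and 66.8 ± 1.82 CPM in Myc/Akt1 (SD, n = 3 each).

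Rbl2 (ENSMUSG00000031666, chromosome 8, 91070057 to 91123844), which encodes p130, was at 21.8, 18.8 and 26.6 CPM in Myc/NrasG12V, against 22.9, 21.5 and 21.4 CPM in Myc/Akt1. The Myc/NrasG12V libraries lay on either side of the Myc/Akt1 libraries. Its log2 difference was 0.016 in CPM (95% interval -0.42 to 0.45, limma adjusted p 0.958), which allows a change of either sign up to those bounds, and 0.32 with TMM factors (0.174). The opposite-strand gene Aktip shares up to 347 exon bases with Rbl2 and averaged 7.93 ± 1.27 CPM in Myc/NrasG12V and 12.7 ± 1.15 CPM in Myc/Akt1 (SD, n = 3 each).

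**Figure D2:**
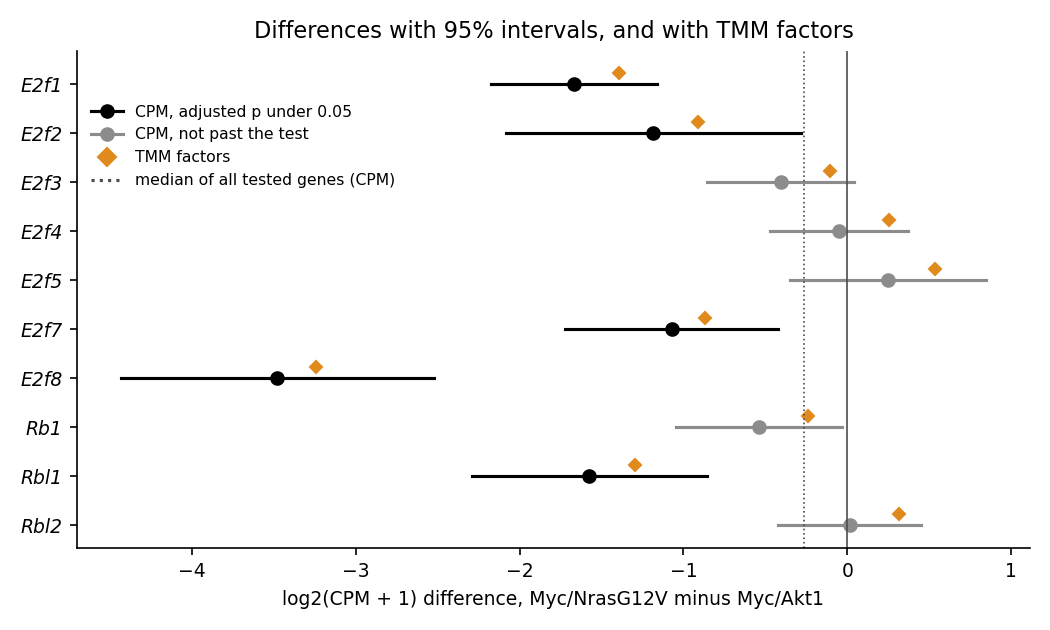
Log2(CPM + 1) difference of each member, Myc/NrasG12V minus Myc/Akt1, as a point with its 95% interval, black where the adjusted p was under 0.05 and grey where not; diamonds give the estimate with TMM factors and the dotted line the median of all tested genes, -0.26. E2f8 lies farthest to the left at -3.48, and E2f4 changes sign with the scaling, from -0.05 in CPM to 0.26 with TMM factors.

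Levels were compared between genes as CPM per kilobase of exon (GENCODE M21 exon lengths, all isoforms merged). In Myc/NrasG12V E2f4 was the highest at 11.9 ± 2.07 CPM per kb, then E2f5 at 7.06 ± 2.2 and E2f3 at 3.86 ± 0.63 (SD, n = 3). Rbl2, Rb1, E2f1, E2f2 and Rbl1 followed at 2.96, 2.2, 1.20, 0.943 and 0.772 CPM per kb, and E2f8 and E2f7 were lowest at 0.189 and 0.137. Neighbours in this order whose libraries overlapped were E2f3 and Rbl2, Rbl2 and Rb1, E2f1 and E2f2, E2f2 and Rbl1, and E2f8 and E2f7. In Myc/Akt1 E2f4 was again highest, at 12.2 ± 0.765 CPM per kb, and E2f7 lowest, at 0.417 ± 0.170 (SD, n = 3), each clear of its neighbour. The 8 members between them, from E2f5 at 5.75 to E2f2 at 2.52 CPM per kb, each overlapped the next in order, and E2f8, at 3.79 ± 1.31, stood above Rb1, Rbl2, Rbl1 and E2f2.

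The make-up of the family shifted with these changes. Of the summed CPM per kb of the 7 E2F members, the repressors E2f4 and E2f5 held 74.5 ± 3.85% in Myc/NrasG12V and 52.6 ± 4.63% in Myc/Akt1 (SD, n = 3 each). The activators held 24.1 ± 3.25% in Myc/NrasG12V and 35.3 ± 2.57% in Myc/Akt1. The atypical genes held 1.37 ± 0.95% in Myc/NrasG12V and 12.1 ± 3.61% in Myc/Akt1. For each of these classes the ranges of the groups did not overlap. In absolute terms the repressors summed to 18.9 ± 4.25 CPM per kb in Myc/NrasG12V and 18 ± 0.327 in Myc/Akt1, while the activators summed to 6.00 ± 0.340 in Myc/NrasG12V and 12.1 ± 1.70 in Myc/Akt1.

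Ratios within a library do not depend on its scaling. The log2 ratio of atypical to activator CPM was -4.22, -2.91 and -4.27 in Myc/NrasG12V, against -1.24, -0.75 and -1.64 in Myc/Akt1, a difference of -2.59. The log2 ratio of Rbl1 to Rbl2 was lower in Myc/NrasG12V by -1.78 as a signed difference, and that of Rbl1 to Rb1 by -1.19. All 3 ratios were lower in every Myc/NrasG12V library than in every Myc/Akt1 library, and each had an exact permutation p of 0.10 (two-sided, 3 ratios tested, adjusted p likewise at 0.10), the smallest that 3 against 3 samples allow. Rbl1 made up 13.1 ± 1.04% of the summed CPM per kb of the RB family in Myc/NrasG12V and 30.2 ± 6.99% in Myc/Akt1. Rbl2 made up 49.8 ± 0.84% in Myc/NrasG12V and 33.2 ± 6.39% in Myc/Akt1, and Rb1 37.1 ± 0.60% in Myc/NrasG12V and 36.7 ± 1.02% in Myc/Akt1.

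**Figure D3:**
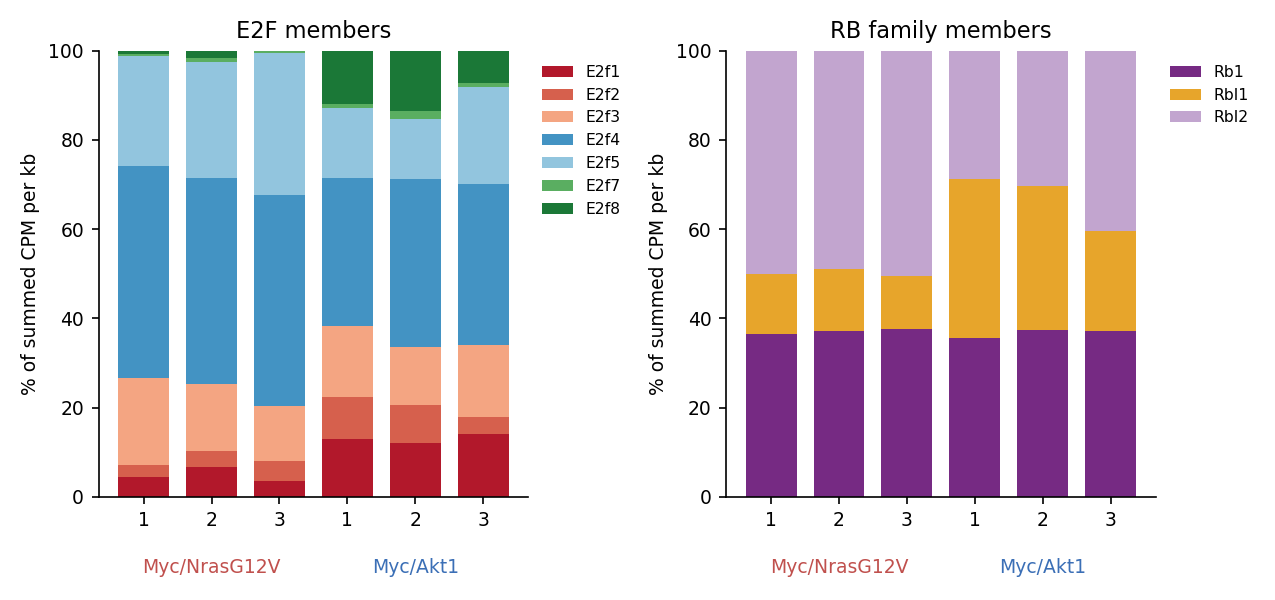
Share of each gene in the summed CPM per kilobase of exon, for the 7 E2F members (left panel) and the 3 RB family members (right panel), with 1 bar per library and Myc/NrasG12V libraries before Myc/Akt1 libraries. The E2f8 segment fills 0.0341 to 1.67% of the Myc/NrasG12V bars and 7.22 to 13.5% of the Myc/Akt1 bars, and the Rb1 segment is nearly level throughout.

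Within Myc/Akt1, replicate 3 was the lowest library for 7 members, E2f2, E2f4, E2f7, E2f8, Rb1, Rbl1 and Rbl2, and for none of E2f1, E2f3 and E2f5. Within Myc/NrasG12V, replicate 3 was the highest for 6 members and the lowest for E2f8 alone. Blood cell markers also differed between libraries. The 8 neutrophil markers summed to 23.9, 56.2 and 188 CPM in Myc/NrasG12V replicates 1, 2 and 3, against 1.68 to 2.21 CPM in Myc/Akt1. Of 7 tested neutrophil markers 5 were higher and 0 lower in Myc/NrasG12V. Macrophage and Kupffer cell markers summed to 153 to 292 CPM in Myc/NrasG12V, against 113 to 149 CPM in Myc/Akt1 (2 of 7 higher, 0 lower). T and NK cell markers summed to 9.95 to 26.1 CPM in Myc/NrasG12V, against 5.35 to 7.45 CPM in Myc/Akt1 (3 of 6 higher, 1 lower). B cell markers summed to 3.24 to 6.11 CPM in Myc/NrasG12V, against 2.54 to 3.77 CPM in Myc/Akt1, with 0 of 3 tested past the test. Endothelial markers summed to 145 to 228 CPM in Myc/NrasG12V, against 165 to 205 CPM in Myc/Akt1 (3 of 6 higher, 1 lower), and stellate and fibroblast markers to 445 to 519 CPM in Myc/NrasG12V against 360 to 599 CPM in Myc/Akt1 (1 of 7 higher). Cholangiocyte markers summed to 424 to 968 CPM in Myc/NrasG12V, against 128 to 262 CPM in Myc/Akt1 (1 of 5 higher). Most of that sum was Spp1, at 409 to 951 CPM in Myc/NrasG12V and 115 to 250 CPM in Myc/Akt1. Spp1 was also the 1 gene past the test, while Krt19, Epcam, Krt7 and Sox9 did not pass. Hepatocyte markers, which define the labelled tissue, were abundant in all libraries, at 127848 to 160963 CPM in Myc/NrasG12V and 40909 to 54295 CPM in Myc/Akt1, with 4 of 8 higher in Myc/NrasG12V. Alb gave most of each hepatocyte sum. Its mean was 3.30-fold higher in Myc/NrasG12V and the groups did not overlap, but it did not pass the limma test (adjusted p 0.184). Over the alternatives its adjusted p ran from 5.75e-15 to 0.740, so its call depends on the method. Ttr had a lower mean in Myc/NrasG12V and did not pass either. No marker on these lists was at 0 in all libraries. The part of other cell types in the member values was not tested.

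Of the DP partners of the E2Fs, 1 of 2 was lower in Myc/NrasG12V, a count too small to set against the 29.5% of all tested genes. Tfdp1, which encodes DP1, was at 22, 22.3 and 29.6 CPM in Myc/NrasG12V, against 61.4, 68.0 and 33.1 CPM in Myc/Akt1 (log2 difference -1.05, limma adjusted p 0.0173). This call was lost with TMM factors (0.0624) and without Myc/NrasG12V replicate 1 or 2 (0.0555 and 0.0551) or Myc/Akt1 replicate 1 or 2 (0.0711 and 0.0696); over the alternatives that ended it, the highest adjusted p was 0.0765, with upper-quartile factors. Tfdp2, the other DP gene, averaged 19.3 ± 10.5 CPM in Myc/NrasG12V and 23.0 ± 2.90 CPM in Myc/Akt1 (SD, n = 3 each; limma adjusted p 0.429), and passed only without Myc/NrasG12V replicate 3 (0.0193).

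Of 8 genes of the MuvB core and the activators that join it, 6 (75%) were lower in Myc/NrasG12V and 0 higher. Among all tested genes 29.5% were lower and 10% higher. The list had a median log2 difference of -1.07, and 5 were lower with TMM, median-of-ratios or upper-quartile factors. Foxm1, the forkhead activator of mitotic genes, was at 1.91, 3.35 and 2.68 CPM in Myc/NrasG12V, against 34.9, 28.5 and 20.0 CPM in Myc/Akt1 (10.5-fold higher there, limma adjusted p 1.61e-04). Mybl1, encoding A-MYB, was 6.42-fold higher in Myc/Akt1 (limma adjusted p 0.00184). The MuvB genes Lin9, Lin54 and Rbbp4 were 2.29-, 2.46- and 2.22-fold higher in Myc/Akt1, while Lin37 (log2 difference 0.11) and Lin52 (-0.10) did not pass. Mybl2, encoding B-MYB, was low in all libraries, at 1.81, 1.65 and 2.68 CPM in Myc/NrasG12V against 4.07, 3.52 and 3.54 CPM in Myc/Akt1. Its limma adjusted p of 0.0455 did not hold with TMM factors (0.143) or in the edgeR test (0.189), and it was lost without Myc/NrasG12V replicate 1 or 2 or any 1 of the Myc/Akt1 libraries (0.0735 to 0.144).

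Genes upstream of the RB proteins went both ways: of 16, 4 were higher and 4 lower in Myc/NrasG12V, and 6 and 3 with TMM factors, which added Ccne1 and Cdkn1a and dropped Cdk4. The share lower, 25%, was below the 29.5% of all tested genes, and the share higher, also 25%, stood beside their 10%; with TMM factors all tested genes gave 16.2% higher and 17.9% lower. Higher were the D-type cyclins Ccnd1 and Ccnd3 and the CDK inhibitor genes Cdkn2a and Cdkn2b. Ccnd1 was at 45.1, 40.2 and 20.0 CPM in Myc/NrasG12V, against 10.7, 18.2 and 14.7 CPM in Myc/Akt1 (2.42-fold, limma adjusted p 0.0208). Its call ended without Myc/NrasG12V replicate 1 or 2 (0.0744 and 0.0719) or Myc/Akt1 replicate 1 (0.0800). Ccnd3 was 2.33-fold higher in Myc/NrasG12V (limma adjusted p 0.00548), and Ccnd2 and Cdk6 did not pass. Cdkn2b encodes p15, which restrains cyclin D kinases, and Cdkn2a encodes both p16, which does the same, and the p53 activator ARF, which gene-level values do not separate. Cdkn2a and Cdkn2b were at 14.8 to 22.7 and 12.8 to 21.3 CPM in Myc/NrasG12V, against 0.127 to 0.682 and 0.273 to 0.382 CPM in Myc/Akt1. Cdkn2a was 57.1-fold higher in Myc/NrasG12V, and 134-fold without Myc/Akt1 replicate 3, which had the highest value of its group.

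Lower in Myc/NrasG12V were Cdkn2c, Skp2, Ccne2 and Cdk4. Cdkn2c, encoding the inhibitor p18, was at 6.54, 7.21 and 5.98 CPM in Myc/NrasG12V, against 25.5, 21.9 and 21.3 CPM in Myc/Akt1, opposite in direction to Cdkn2a and Cdkn2b (limma adjusted p 4.80e-04). Skp2, a ubiquitin ligase subunit that targets p27, was 4.08-fold higher in Myc/Akt1 (limma adjusted p 0.00171). The E cyclins differed from each other: Ccne2 was at 1.19, 2.2 and 2.68 CPM in Myc/NrasG12V, against 7.38, 8.25 and 4.18 CPM in Myc/Akt1 (limma adjusted p 0.00952), whereas Ccne1 was at 36.6, 30.2 and 32.9 CPM in Myc/NrasG12V against 27.8, 25.7 and 15.4 CPM in Myc/Akt1 and passed, as higher in Myc/NrasG12V, with TMM factors (0.0264) but not in CPM (0.101). Cdk4 was 1.53-fold higher in Myc/Akt1 (limma adjusted p 0.0121), a call that ended with TMM factors (0.167), in the edgeR test (0.205) and without Myc/Akt1 replicate 1 (0.0606). Cdk2, Cdkn1a, Cdkn1b, Cdkn1c and Cdkn2d did not pass in CPM; Cdkn1a passed as higher with TMM factors (0.0461).

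Genes known as E2F targets were lower together in Myc/NrasG12V than in Myc/Akt1. Without a further group, a fall in Myc/NrasG12V and a rise in Myc/Akt1 cannot be told apart. The part of the share of cycling cells in these values was not tested. Of 34 tested genes of the G1/S list, which covers DNA replication and nucleotide synthesis, 31 (91.2%) were lower and 0 higher. Among all tested genes 29.5% were lower and 10% higher. The list had a median log2 difference of -1.97, and 31 were also lower with each of the 3 other scaling factors. The 3 not past the test were Cdc25a, Brca1 and Msh6, and Fen1 was too low to be tested. Mcm10, a replication initiation factor, was at 7.26, 6.57 and 6.77 CPM in Myc/NrasG12V, against 51.0, 50.5 and 57.8 CPM in Myc/Akt1 (7.74-fold higher there). Tk1 and Gins2, for thymidine salvage and the replicative helicase, were 5.05- and 8.72-fold higher in Myc/Akt1. Limma adjusted p ran from 3.78e-05 for Mcm10 to 1.55e-04 for Gins2. Summed over the list, CPM was 276, 403 and 287 in Myc/NrasG12V replicates 1, 2 and 3, against 1614, 1597 and 1029 in Myc/Akt1. Replicate 2, with the highest sum in Myc/NrasG12V, was the highest there for E2f1, E2f7 and E2f8. That library was the lowest of its group for E2f3, E2f4, Rb1, Rbl1 and Rbl2. In Myc/Akt1 replicate 3 had the lowest sum, while E2f1, E2f3 and E2f5 were lowest in replicate 2.

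The G2/M list, whose promoters are bound by B-MYB, FOXM1 and MuvB, was lower throughout. All 24 of its genes were tested, and 24 were lower in Myc/NrasG12V under each scaling and each left-out library, with a median log2 difference of -3.21. Among all tested genes 29.5% were lower in CPM. Mki67, the proliferation antigen gene, was at 16.1, 28.1 and 15 CPM in Myc/NrasG12V, against 286, 205 and 159 CPM in Myc/Akt1. Ccnb2, Birc5 and Cdc20, the other genes of lowest adjusted p, were 14.5-, 13.0- and 18-fold higher in Myc/Akt1. The list summed to 79.4, 128 and 81.2 CPM in Myc/NrasG12V, against 1634, 1141 and 774 CPM in Myc/Akt1. E2f8, at -3.48, lay within the range of this list, -4.04 to -2.26, and E2f1, at -1.67, within that of the G1/S list, -3.38 to -0.40.

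Genes of apoptosis that E2F1 can activate went both ways. Of 8 tested, 2 were higher and 1 lower in Myc/NrasG12V (25% and 12.5%, against 10% and 29.5% of all tested genes), with a median log2 difference of 0.43. Pmaip1, encoding the BH3-only protein NOXA, was at 15.2, 13.1 and 43.8 CPM in Myc/NrasG12V, against 6.19, 7.18 and 4.95 CPM in Myc/Akt1 (3.94-fold, or 2.32-fold without Myc/NrasG12V replicate 3). Ppp1r13b, encoding the p53 cofactor ASPP1, was 2.51-fold higher in Myc/NrasG12V (limma adjusted p 0.00238). Apaf1, of the apoptosome, passed as higher in Myc/NrasG12V with TMM factors (0.0123) but not in CPM (0.106), and Trp73 was too low to be tested.

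**Figure D4:**
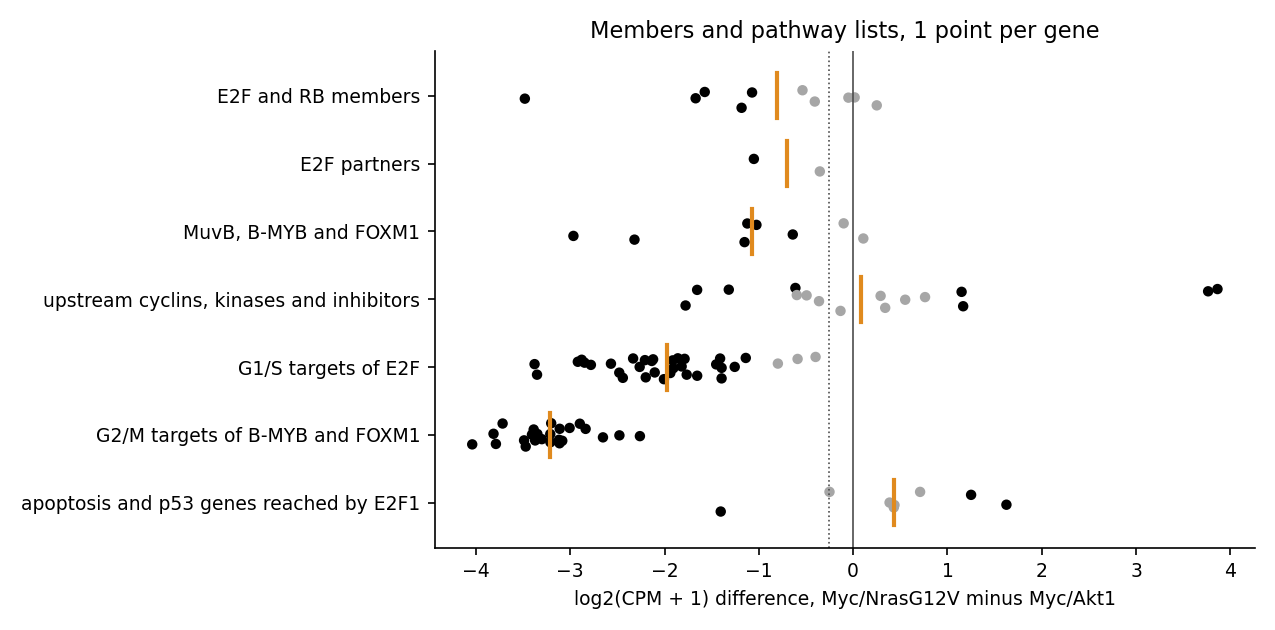
Log2(CPM + 1) difference of each tested gene, Myc/NrasG12V minus Myc/Akt1, by list, black where the adjusted p was under 0.05 and grey where not, with the list median as an orange bar and the median of all tested genes, -0.26, as a dotted line. The G2/M genes lie between -4.04 and -2.26, the G1/S genes between -3.38 and -0.40, and the upstream genes on both sides of 0.

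The start-site words were counted in the target lists. Of 29 G1/S genes with a RefSeq window, 14 (48.3%) held an E2F word and 5 (17.2%) the CHR, while of 20 G2/M genes 1 (5%) held an E2F word and 14 (70.0%) the CHR. Among all 27025 genes with a window, tested or not, the shares were 2.6% and 20.2%. The lists were made of known targets, so a high share of the words was likely beforehand and is no test. Of the 4 G2/M genes with lowest adjusted p, Ccnb2, Cdc20 and Mki67 held the CHR, and Birc5 held neither word in its window. In Ccnb2 it lay 4 bases after the start (chr9:70421537-70421558, minus strand, GRCm38.p6), with a further copy 167 bases before the start, in Cdc20 18 bases before it (chr4:118437348-118437369, minus) and in Mki67 98 bases before it, with a further copy 116 bases before (chr7:135716464-135716485, minus). The copy nearest each start is shown in capitals with the 8 bases on each side.
Ccnb2: gcgcggtaTTTGAAtcgcggac
Cdc20: agttgggtTTTGAAggagccaa
Mki67: cgttttggTTTGAAtcgggcgg
Mcm10 and Tk1, with a window, held neither word. E2f8, the member with a CHR beside its start and no exact E2F word, had the deepest difference of the members, and 1 gene is no test of a relation between the words and the size of a difference.

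**Figure D5:**
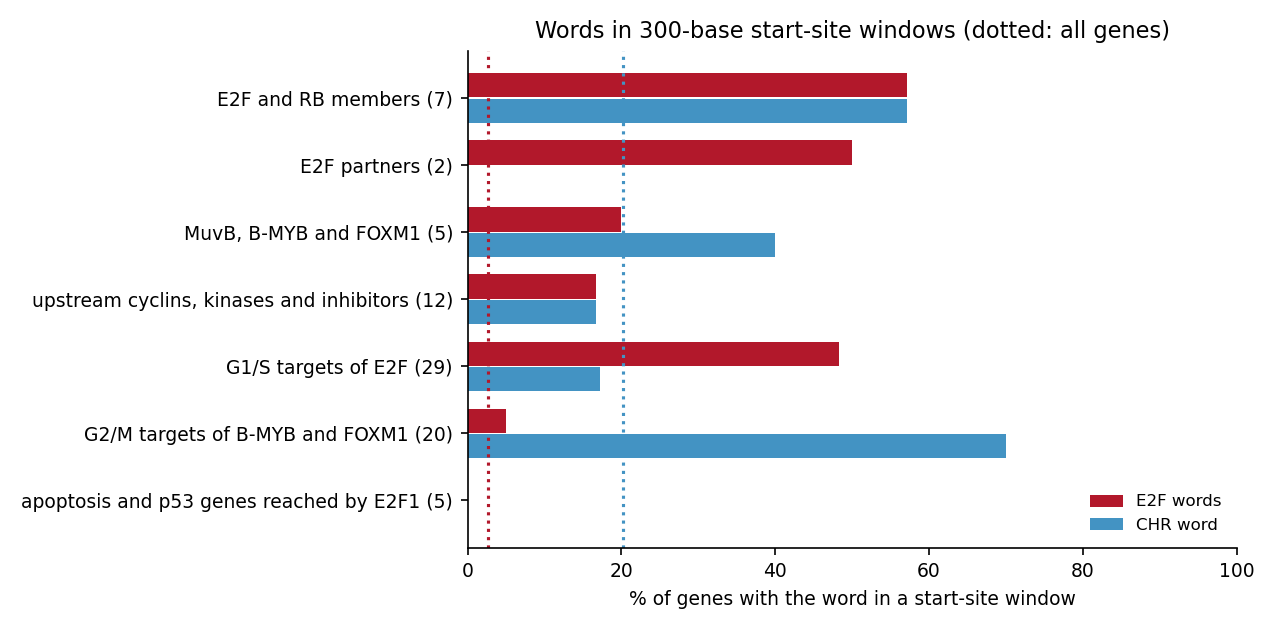
Share of the genes of each list with an E2F word (red) or the CHR (blue) in a 300-base RefSeq start-site window, with the number of genes that have a window in parentheses; dotted lines give the shares over all 27025 genes, 2.6% and 20.2%. E2F words were found in 57.1% of the members and 48.3% of the G1/S genes with a window, and the CHR in 70.0% of the G2/M genes.

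The genes whose profile over the 6 libraries was most like that of a member were found by the root mean square difference of log2(CPM + 1) values centred on each gene's mean, among 13108 genes whose mean reached 1 CPM. Nearest to E2f1 were Msra, Pebp1 and Gpsm2, at 0.0605, 0.0658 and 0.0669, with log2 differences of -1.68, -1.64 and -1.68. Nearest to E2f8 were Ehhadh, Kntc1 and Spon2, at 0.164, 0.176 and 0.213, and nearest to Rb1 were Polr1b, Sumf1 and Trappc10, at 0.0427, 0.0475 and 0.0491. Kntc1 encodes a kinetochore protein, and Ehhadh a peroxisomal enzyme of fatty acid oxidation.

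E2f6, a repressor that acts without the RB proteins and stands outside the 10 genes, averaged 9.17 ± 0.718 CPM in Myc/NrasG12V and 13.2 ± 1.98 CPM in Myc/Akt1 (SD, n = 3 each), with a log2 difference of -0.47 and a limma adjusted p of 0.102. It was added after its values had been seen.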

How the data were processed

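Per the labels' protocols, poly(A) RNA of 6 tumour samples was made into stranded libraries and read from one end for 75 cycles. The submitters' processing notes list edgeR 3.22.5, Subread 1.6.3 and STAR 2.6.1c, with GRCm38 as the genome. Not given in the sources used here are the release of the annotation, how strand was counted and how multi-mapping reads were treated. The deposited values are CPM, scaled by the authors to the reads counted in genes without a composition factor. Dividing by the value of 1 read gave whole reads, within 0.01 read, in 100% of cases. A count of 0 allows up to 3 reads, or 0.108 to 0.168 CPM, for counting error only.

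Genes passing edgeR's filterByExpr (0.457 CPM in 3 libraries, 15 reads in all) entered limma 3.58.1, a two-sided moderated test with an intensity trend, on log2(CPM + 1) values. Differences are Myc/NrasG12V minus Myc/Akt1, and p-values were adjusted by Benjamini-Hochberg over 14365 genes. Fold values are ratios of mean CPM. Alternatives used edgeR 4.0.16 and DESeq2 1.42.0 on recovered reads in R 4.3.3, other scalings, pseudocounts and filters, the replicate number as a block, and each library left out. On recovered reads edgeR called 4893 genes. In simulated data 69, 73 and 58 of 14365 genes were changed by 1.5-, 2- and 4-fold. The fit recovered 4.35%, 38.4% and 100% of them, and 9.18% of its calls were false. Genes of low level were left unchanged there, and the same dispersion served for every gene. Far fewer genes were changed than were called in the data, so these rates need not hold here or for low genes such as E2f7. Genes not past the test may still differ by small folds. Of the listed genes 96.2% matched GENCODE M21, the source of coordinates and exon lengths; promoter sequences are RefSeq's. Members and lists were chosen with earlier results of these data known. Named were all members, partner, MuvB and upstream genes, and of other lists the 4 of lowest adjusted p and calls against the list's median; likeness was sought for E2f1, E2f8 and Rb1. Some genes that this rule names are not reported here. Genes not past the test, untested genes and opposite-strand neighbours were named after their values were seen.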

Additional observations from a re-analysis of the deposited data

How the results depend on the processing

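The calls of E2f1, E2f8 and Rbl1 held under all 16 alternatives tried. The members called lower, 5 in the chosen analysis, came to 3 with upper-quartile factors, with no filter on low values and in the edgeR test, and ranged from 3 to 6 when 1 library was left out; 0 were called higher in any of these. E2f4, not called, turned to 0.26 with TMM and 0.26 with median-of-ratios factors, 0.31 with upper-quartile factors, 0.27 in edgeR, 0.27 in DESeq2 and 0.043 without Myc/NrasG12V replicate 2; over the left-out libraries it ran from -0.18 to 0.043, and Rbl2 from -0.11, without Myc/NrasG12V replicate 3, to 0.13. Over all genes, 2331, 2366 and 2544 were higher and 2565, 2515 and 2343 lower in Myc/NrasG12V with the TMM, median-of-ratios and then upper-quartile scaling, 2381 and 2512 in edgeR, and 2752 and 2791 in DESeq2; leaving out 1 library gave 966 to 1502 higher and 2890 to 4796 lower. Of the 2 partner genes 0 were lower with any of the 3 factors, and 0 to 2 when 1 library was left out. The apoptosis genes called higher came to 4 in DESeq2. The cause of these moves was not tested. The 3 ratios differed by -3.04 to -2.36, -2.13 to -1.54 and -1.40 to -1.03 when 1 library was left out. Same-numbered libraries did not deviate together in all pairs (correlations -0.0812, 0.113 and 0.0848), so the numbers were not taken as pairs. With the replicate number as a block 4 members were lower, E2f2 being lost (adjusted p = 0.0686), and in the paired exact test each ratio had a p of 0.25, the smallest that 3 pairs allow. E2f7 and E2f8 rest on 74 and 66 reads over the Myc/NrasG12V group, which limits the precision of their folds.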
